A study of Mus musculus with 16 samples.

Results

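Endothelial cells of mouse embryos with a wild-type Notch1 allele beside either a vg allele (+/vg) or a deleted allele (+/-) were compared at embryonic day 9.5. The members were the 6 libraries, of 16 in the series, whose genotype label gives these pairs of alleles, 3 +/vg and 3 +/-. The comparison asks whether a vg allele acts unlike no allele when 1 wild-type allele is present. Cells were sorted from whole embryos on CD31, the adhesion protein Pecam1 of endothelium and platelets, and libraries were made by tagmentation. Endothelial development is given as normal for both genotypes. The labels do not say how much of the gene the null allele lacks, whether a library held 1 embryo or several, or the strain. The tests below can therefore speak only of library-to-library spread, part of which may be technical. The fit also held 3 +/+ libraries with both alleles wild type, 3 +/12 libraries, 3 12/- libraries and 1 12/vg library. In the 12 allele the intracellular domain of Notch1 is replaced by that of Notch2.

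Notch1 is a cell-surface receptor. A ligand of the Delta or Jagged family on a neighbouring cell pulls on it, ADAM proteases cut it outside the membrane, and γ-secretase then cuts it within the membrane, which frees the intracellular domain (NICD). NICD enters the nucleus, binds Rbpj with Mastermind-like proteins and activates genes such as those of the Hes and Hey families, until it is phosphorylated and degraded. In embryonic endothelium the pathway is known for arterial identity, for restraint of sprouting tip cells, and for the endocardium and its cushions.

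The vg allele carries V1744G, a change of the valine at the γ-secretase cut to glycine. Per the labels, the cut then moves and the freed domain is less stable. The reference coding sequence around it is shown because the capital GTG is the codon that the allele alters. It was read from the mouse transcript Notch1-201 of GENCODE M21 (mm10), whose longest open reading frame has 2531 codons, and covers codons 1728 to 1760, the membrane-spanning stretch and the start of the intracellular domain.
Notch1 codons 1728 to 1760: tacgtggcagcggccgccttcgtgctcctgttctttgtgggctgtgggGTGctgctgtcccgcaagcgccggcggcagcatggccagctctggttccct
The expression files hold levels per gene and no bases, so the codon itself was not read in these libraries.

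The values were FPKM (fragments counted per kilobase of a transcript, relative to all mapped fragments of a library), summed per gene symbol and scaled between libraries. Aligned sequence was 1.499 to 1.80 gigabases in 5 of the 6 libraries and 0.189 in the other, +/- replicate 2. That library stood apart. Its log2 profile correlated with those of the other 5 at Pearson's r of 0.865 to 0.892 across genes, which are not independent replicates, against 0.898 to 0.910 among the others. The median standard deviation of a gene over the 3 libraries was 0.29 on the log2 scale in +/- and 0.17 in +/vg. File names carry a library number, and in each group replicates 1 and 2 had a number above 300 (the high range) and replicate 3 a number below it (the low range), so each difference is also given within those ranges. The endothelial label fitted its markers: Pecam1, Cdh5, Kdr, Tek, Tie1, Eng and Cldn5 were all expressed, with a summed level of 488 to 532 scaled FPKM in +/vg and 470 to 616 in +/-.

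No gene differed between +/vg and +/- at an adjusted p under 0.05. Of 10550 genes tested with limma on log2(scaled FPKM + 1), 0 were called (0%), and the smallest Benjamini-Hochberg adjusted p was 0.241. At an unadjusted p under 0.05, 509 genes were higher in +/vg (4.82%) and 382 lower (3.62%). The 3 libraries of one group lay wholly above or below those of the other for 1101 genes (10.4%), 619 with +/vg higher (5.87%) and 482 with +/vg lower (4.57%). The median difference over all genes was 0.01 on the log2 scale, and 52.2% of them were higher in +/vg. That split rests on the scaling between libraries: with the deposited FPKM left unscaled, 3886 genes were higher and 6634 lower, with a median of -0.08. Of the 30 gene lists, 7 had a median above 0 with scaling and below 0 without it: the Notch receptors, ligands and nuclear cofactors, and the blood progenitor, hypoxia, flow and Wnt lists.

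How large a difference these libraries leave room for varied by gene. The 95% interval of the difference reached a median of 0.42 to either side. For 8971 genes (85.0%) it lay wholly between -1 and 1, and for 4909 genes (46.5%) wholly between -0.58 and 0.58. These limits stand for about a doubling and 1.5-fold only in well-expressed genes, because 1 was added before the log. In the 4287 genes with a mean under 5 scaled FPKM such changes read as smaller, so the limits do not by themselves leave them out. Differences past 1 in size were seen for 287 genes. They included 60.1% of the 341 genes with no transcript of 300 nt, many of them microRNA and small nucleolar RNA genes that are listed at 0 in some libraries, and 0.803% of the 10209 longer genes. Of the 82 longer genes past 1, 64 were higher and 18 lower in +/vg.

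**Figure D1:**
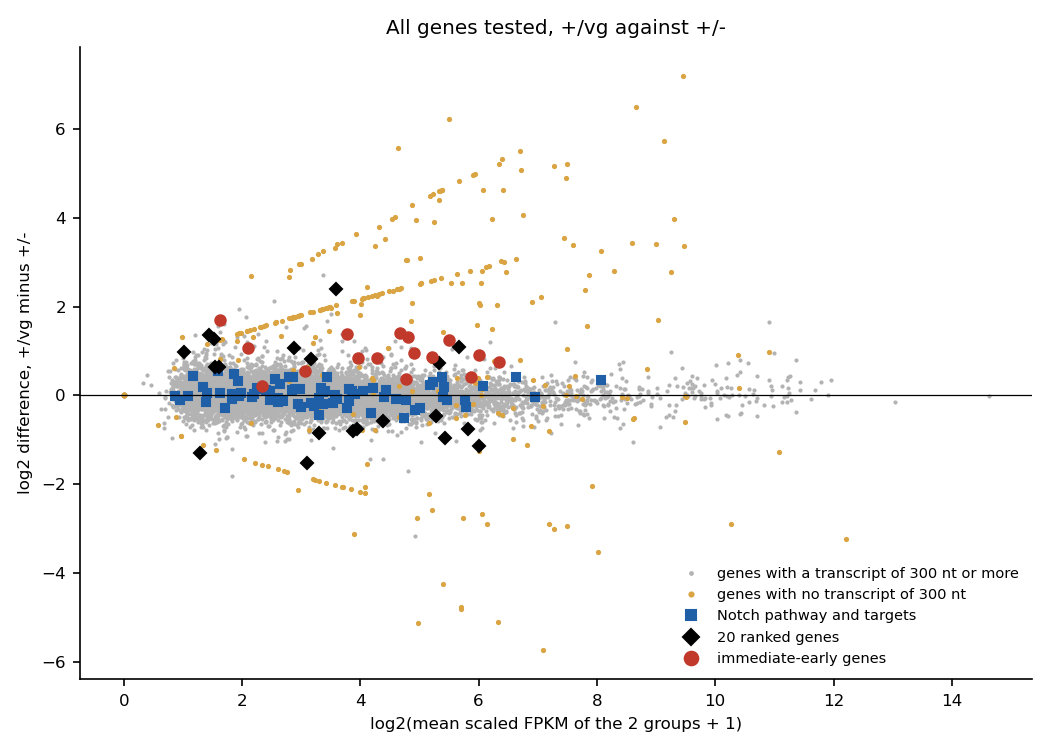
Difference between +/vg and +/- (y axis, log2 scale, 0 means no difference) against mean level (x axis, log2 scale) for the 10550 genes tested, 1 point per gene. Points far from 0 are mostly genes with no transcript of 300 nt; the Notch genes lie within 0.55 of 0, and all 16 immediate-early genes lie above 0.

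Notch1 itself, on chromosome 2 at 26313422 to 26359342 of mm9, was expressed at 23.2, 20.6 and 20.4 scaled FPKM in the 3 +/vg libraries and at 16.4, 20 and 23.2 in the 3 +/- libraries. The groups overlapped, and the highest and the lowest +/- library spanned the whole +/vg range. The log2 difference was 0.11 ± 0.15 (SE; 95% interval -0.20 to 0.43; limma adjusted p = 0.820), and the exact two-sided permutation test gave p = 0.4, where 3 against 3 libraries allow 0.1 at the smallest. Within the high range of library numbers the difference was 0.26 and in the low range -0.17. The +/+ libraries stood at 20.5 ± 2.9 (SD, n = 3). Because the level counts reads over the whole gene and the extent of the deletion is not stated, it does not by itself check the +/- label.

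The other 3 receptors also overlapped between the groups. Notch2, the receptor whose intracellular domain the 12 allele carries, stood at 2.91, 2.10 and 2.26 in +/vg and at 2.33, 3.41 and 2.25 in +/- (log2 difference -0.09 ± 0.15, exact two-sided permutation p = 0.6). Notch4, a receptor largely restricted to endothelium, stood at 9.05, 10.1 and 10.3 against 8.63, 10.7 and 14.7 (-0.16 ± 0.21). Notch3, a receptor better known in vascular smooth muscle, was low in all 6 libraries, at 2.06, 1.60 and 1.46 against 1.13, 1.41 and 1.60 (0.18 ± 0.20). The 95% interval of every receptor lay between -1 and 1 on the log2(scaled FPKM + 1) scale, which understates fold changes at the low levels of Notch2 and Notch3.

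Of 11 listed ligands and Fringe glycosyltransferases, which set how a receptor answers each ligand, 8 were expressed highly enough to be tested, 4 higher and 4 lower in +/vg, with a median difference of 0.01 against 0.01 over all genes. Dll4, the main endothelial ligand at this stage, stood at 8.24, 8.76 and 5.70 in +/vg and 6.92, 9.22 and 11.2 in +/-. Jag1 stood at 1.99, 2.83 and 2.91 against 2.03, 1.95 and 3.67. Both genes overlapped between the groups. Mfng, the most abundant Fringe, had a difference of 0.31 ± 0.20, and Rfng one of 0.54 ± 0.25 (unadjusted p = 0.0502, limma adjusted p = 0.591). Rfng was measured at 1.58, 3.31 and 2.90 in +/vg and 1.40, 1.12 and 1.78 in +/-, so the lowest +/vg library fell below the highest +/- library.

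Of 25 genes for the cleavage, glycosylation and trafficking of Notch, 19 were tested, 9 higher and 10 lower, with a median of 0.00. Ncstn, the γ-secretase subunit that docks the substrate, had a difference of -0.12 ± 0.18. The protease gene Adam10 had one of -0.27 ± 0.17. Poglut1, which adds O-glucose to Notch, was the 1 gene of the list whose libraries did not overlap, at 6.39, 6.31 and 5.97 in +/vg and 7.71, 9.05 and 6.42 in +/- (-0.26 ± 0.13, unadjusted p = 0.0655, limma adjusted p = 0.617).

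Of 27 nuclear cofactors of NICD and genes of its turnover, 25 were tested, 15 higher and 10 lower in +/vg, with a median of 0.04. Without scaling the split was 10 higher and 15 lower (median -0.04), and 0 had an unadjusted p under 0.05. With scaling 4 were higher at that p, where the share of all genes was 4.82%, and in 6 the +/vg libraries all lay above the +/- libraries, where it was 5.87%. Rbpj, the DNA-binding partner of NICD, was not among them, at 5.77, 6.62 and 6.32 in +/vg and 7.98, 7.11 and 6.61 in +/- (-0.18 ± 0.16). The ubiquitin ligase gene Fbxw7, which marks NICD for degradation, had a difference of -0.11 ± 0.21.

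Ep300, the acetyltransferase that NICD recruits to activate genes, was measured at 11.8, 10.3 and 12.1 in +/vg and at 7.91, 7.00 and 10.1 in +/-. Every +/vg library lay above every +/- library, the nearest pair by a small margin. The difference was 0.42 ± 0.14 (limma unadjusted p = 0.00845, adjusted p = 0.478), and it was 0.51 in the high range and 0.25 in the low range. Kdm5a, a histone demethylase of the Rbpj repressor complex, stood at 7.47, 6.86 and 6.40 against 5.76, 4.17 and 4.96 (0.41 ± 0.13). The Groucho-type corepressors Tle4 and Tle1 had differences of 0.37 ± 0.14 and 0.32 ± 0.14. None of these 4 passed after adjustment, and in all 4 the shallow library was the lowest of the 6. Other cofactors on the list were lower, among them the corepressor gene Ctbp1 (-0.38) and the coactivator gene Maml1 (-0.17).

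Among 28 listed Notch target genes, 22 were tested, with 11 higher, 11 lower and a median of 0.00. Hes1, a repressor and a classical target, stood at 43.2, 55.9 and 34.6 in +/vg and at 34.3, 36.6 and 44.3 in +/-. Hey1, the related repressor of arterial endothelium, stood at 48.4, 48.7 and 28.1 against 51.1, 30.5 and 52.8. Both overlapped, and the low-range library was the lowest of the +/vg group and the highest of the +/- group in each. Hey2 had the same order, at 2.17, 1.39 and 0.947 against 1.25, 1.77 and 2.22. The fitted differences of Hes1, Hey1 and Hey2 were 0.19 ± 0.27, -0.10 ± 0.32 and -0.15 ± 0.22.

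Nrarp, a small ankyrin-repeat protein that is induced by Notch and limits NICD, was the 1 target whose libraries did not overlap. It was measured at 6.71, 6.75 and 8.62 scaled FPKM in +/vg and at 8.98, 11.95 and 10.1 in +/-. All 3 +/vg libraries were lower, with the high-range pair the lowest of the 6. The difference was -0.44 ± 0.18 (limma unadjusted p = 0.0315, adjusted p = 0.574), and -0.56 and -0.21 within the high and the low range. The +/+ libraries stood at 7.97 ± 0.28, so the +/vg mean of 7.36 was the nearer of both group means to wild type.

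The arterial targets showed no shift that held across libraries. Efnb2, the arterial ephrin, stood at 47.1, 41.1 and 26.7 against 31.9, 25.6 and 37.6. The gap junction gene Gja4 stood at 28.2, 26.2 and 21.03 against 28.9, 20.4 and 52.4, and the guidance receptor gene Unc5b at 23.4, 21.4 and 16.4 against 17.7, 43.8 and 31.4. In each the low-range pair had the lower value in +/vg. Over all 22 targets the median was 0.17 in the high range and -0.36 in the low range, and over 19 arterial genes 0.27 and -0.61. The sign of these medians therefore followed the range of library numbers, and the low range rests on 1 library against 1.

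**Figure D2:**
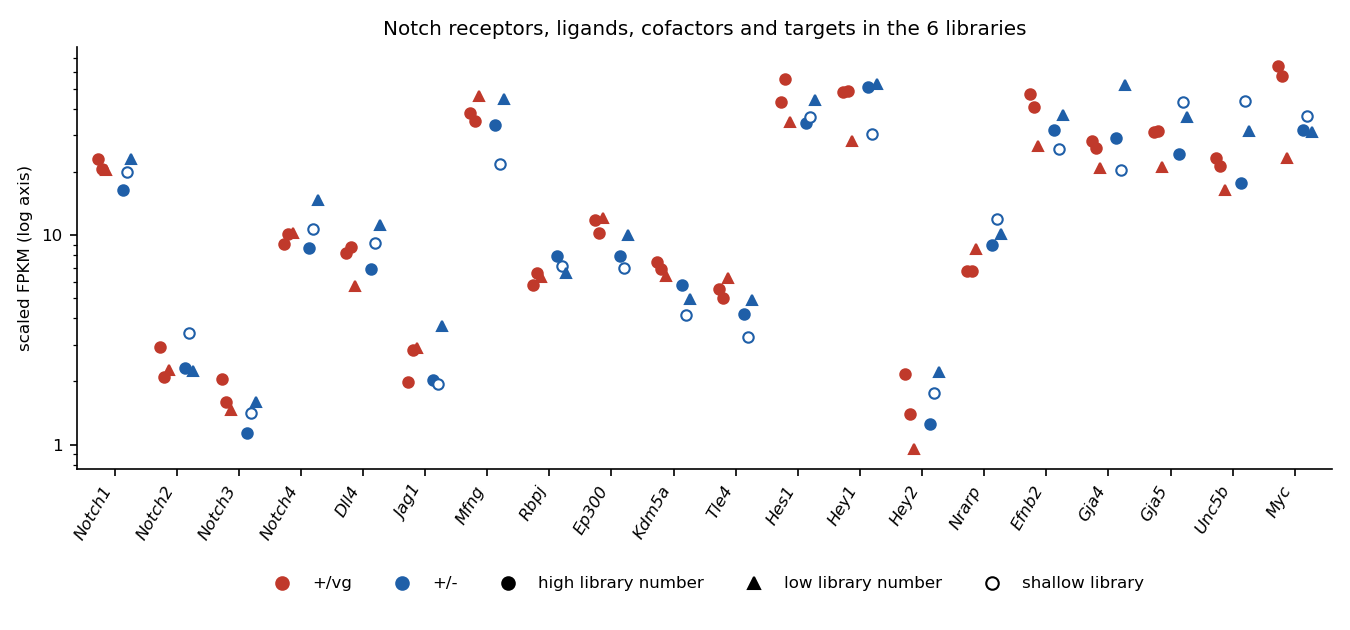
Scaled FPKM (y axis, log axis) of 20 genes for Notch receptors, ligands, cofactors and targets (x axis) in each +/vg (red) and +/- (blue) library; triangles are the low range of library numbers and the open symbol is the shallow library. The 2 groups overlap for most genes; Nrarp is lower and Ep300, Kdm5a and Tle4 are higher in every +/vg library.

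Immediate-early genes, which cells switch on within minutes of a stimulus, injury or handling without needing new protein, were the list with the largest median difference. All 16 listed genes were tested and all 16 were higher in +/vg (52.2% of all genes), with a median of 0.90 against 0.01 over all genes. At an unadjusted p under 0.05, 12 were higher (75.0%, where the share of all genes was 4.82%), and in 9 the libraries did not overlap (56.2%, against 5.87%). None passed after adjustment, and the smallest limma adjusted p was 0.474.

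Atf3, a stress-induced transcription factor, was measured at 40.9, 36.1 and 29.3 in +/vg and at 14.4, 7.07 and 19.6 in +/-. Every +/vg library lay above every +/- library. The difference was 1.40 ± 0.34 (95% interval 0.67 to 2.14, limma unadjusted p = 0.00125, adjusted p = 0.474). Egr1, a zinc-finger factor induced by growth factors and flow, stood at 33.1, 39.9 and 40.6 against 9.69, 12.4 and 25.5 (1.31 ± 0.38). Again no library crossed, and the highest +/- library was the low-range one.

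The AP-1 genes differed among themselves. Junb stood at 13.8, 18.1 and 23.0 in +/vg and 4.72, 3.84 and 13.0 in +/- (1.38 ± 0.45), and Fos at 39.2, 44.0 and 31.4 against 14.3, 29.1 and 16.3 (0.96 ± 0.34). Neither overlapped. Jun did, at 111, 104 and 37.0 against 41.7, 22.6 and 64.8, with a difference of 1.77 in the high range and -0.79 in the low range. Jund, which unlike the others is expressed without stimulus, had the smallest difference of the list, 0.21 ± 0.23.

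The feedback inhibitors of the same response went with them. Dusp1, a phosphatase that switches off MAP kinases, stood at 109, 102 and 90.5 against 54.3, 56.4 and 66.7 (0.76 ± 0.24). Zfp36, which destabilises short-lived messenger RNAs, stood at 57.8, 50.0 and 33.4 against 18.8, 31.9 and 24.6 (0.87 ± 0.26), and the antiproliferative gene Btg2 at 20.1, 23.8 and 13.3 against 9.07, 11.1 and 9.72 (0.84 ± 0.22). In all 3 the +/vg libraries were the higher ones without overlap. Klf6, a zinc-finger factor of injured endothelium, stood at 86.3, 72.4 and 32.6 against 29.4, 16.0 and 29.9, so that nearly all of its difference of 1.25 ± 0.34 came from the high range (1.82, against 0.12 in the low range). Nr4a1, Ier2 and Ier3 overlapped, at 0.38 ± 0.46, 0.43 ± 0.26 and 0.54 ± 0.47.

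Within the high range all 16 genes were higher in +/vg and in the low range 14 were, with medians of 1.06 and 0.43. Both ranges gave a higher value for 14 of the 16 (87.5%) and for 27.5% of all genes. The mean log2 level of the 16 genes was 4.78, 4.57 and 4.57 in the +/vg libraries and 3.42, 3.62 and 4.09 in the +/- libraries. Elsewhere it was 3.26 to 3.69 in the 3 +/+ libraries, 3.78 to 4.70 in the +/12 libraries, 3.61 to 4.23 in the 12/- libraries and 3.59 in the 12/vg library. So 1 +/12 library reached the level of the +/vg libraries. The single library with vg beside a 12 allele did not, and it was shallow, with 0.262 gigabases of aligned sequence. The part of depth in its level was not tested.

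Both groups can be set against the same +/+ libraries. The list's median was 1.24 for +/vg minus +/+, with 16 of 16 higher (51.3% of all genes), 14 at an unadjusted p under 0.05 (4.39% of all genes) and 12 without overlap (7.3%). It was 0.25 for +/- minus +/+, with 12 of 16 higher (49.5%), 2 at an unadjusted p under 0.05 (3.66%) and 2 without overlap (4.02%). These figures share the +/+ libraries, all of the high range, and no gene was called in either (0% each).

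Some values of other cells differed too. The megakaryocyte and platelet genes, which a CD31 sort can carry along, were higher in +/vg for 15 of 16 (52.2% of all genes), with a median of 0.37. All had overlapping libraries and none had an unadjusted p under 0.05. Their mean log2 level was 3.86, 3.81 and 4.74 in the +/vg libraries and 3.37, 3.48 and 4.36 in the +/- libraries, highest in the low-range library of each group. Their markers Pf4, Ppbp, Itga2b and Gp9 summed to 687 to 1437 scaled FPKM in +/vg and 521 to 920 in +/-. Smooth muscle and pericyte markers summed to 11.7 to 15.7 in +/vg and 9.21 to 11.4 in +/-, with 3 of the 4 higher on the mean in +/vg. The other one, Pdgfrb, stood at 1.14, 0.941 and 1.45 against 0.897, 2.04 and 2.18. The 7 tested genes of the smooth muscle and pericyte list were 5 higher and 2 lower, where 52.2% of all genes were higher. Their differences ran from -0.93 in Abcc9 to 0.81 in Tagln, with medians of 0.09 in the high and -0.08 in the low range. Macrophage markers were at 0.385 or less, with 2 of 4 at 0 in all 6 libraries. In such bulk samples fewer cells of a type and less RNA per cell cannot be told apart, and the part of these cells in the immediate-early values was not tested. Leaving out +/- replicate 1 left 15 of the 16 immediate-early genes higher and took the count at an unadjusted p under 0.05 from 12 to 8, and leaving out the shallow libraries left all 16 higher.

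**Figure D3:**
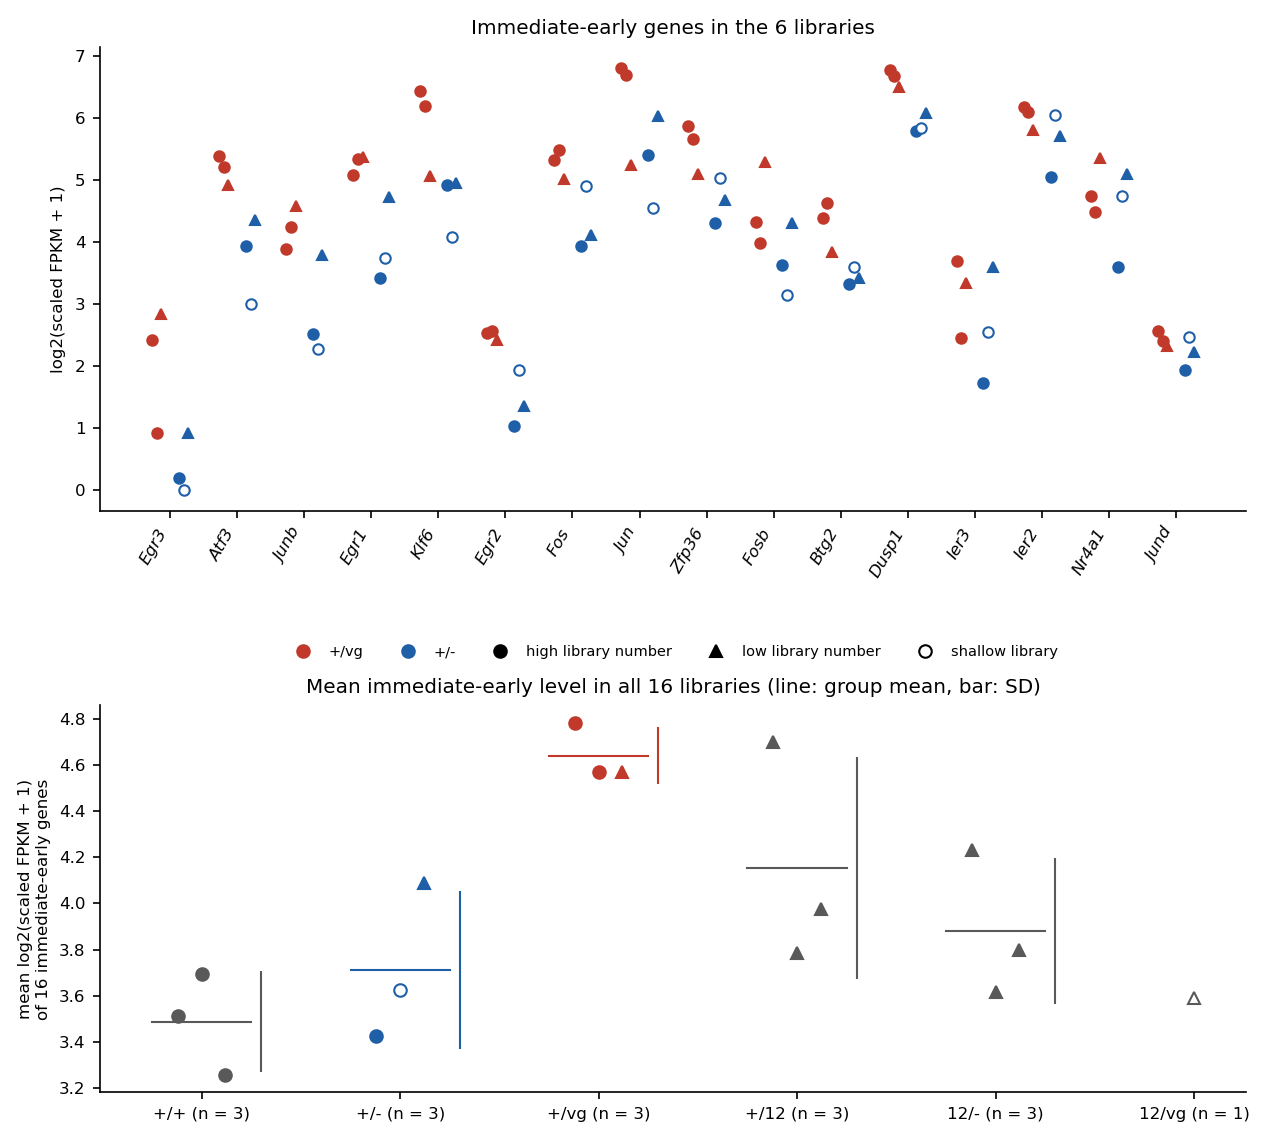
Upper panel, log2(scaled FPKM + 1) of the 16 immediate-early genes in each +/vg and +/- library; lower panel, the mean of the 16 genes in all 16 libraries by genotype, with the group mean and SD. The +/vg libraries sit between 4.57 and 4.78 in the lower panel, above the +/- libraries at 3.42 to 4.09, while 1 +/12 library reaches 4.70.

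By a rule on p, 10 genes were named in each direction among those without overlap, leaving out predicted, small RNA and sex-marking genes. They are the tail of a ranking in which nothing passed, so their values describe these libraries. Hhex, a homeobox factor of early endothelial and blood progenitors, lies on chromosome 19 at 37509331 to 37515221 of mm9. It was measured at 70.3, 70.4 and 62.6 in +/vg and at 32.5, 22.7 and 40.4 in +/-. The 3 +/vg libraries lay close together and well above the others. The difference was 1.10 ± 0.19 (95% interval 0.69 to 1.51, limma unadjusted p = 7.0e-05, adjusted p = 0.241), 1.34 in the high range and 0.62 in the low range. The +/+ libraries stood at 35.2 ± 4.4 and the 12/- libraries at a mean of 52.3, so the +/- level was the one near wild type.

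Gabarapl1, an autophagy protein of the Atg8 family, stood at 49.4, 49.3 and 48.5 in +/vg, 29.7, 24.2 and 34.5 in +/- and 33.4 ± 4.7 in +/+ (0.73 ± 0.14). Galt, an enzyme of galactose breakdown, stood at 11.1, 9.65 and 10.6 against 4.56, 5.38 and 6.58 (0.83 ± 0.17), with +/+ at 6.93 ± 1.04. For both, the +/- libraries were the ones nearer to wild type. Pank1, an enzyme of coenzyme A synthesis, was the reverse, at 2.37, 3.10 and 2.69 in +/vg, 1.499, 1.14 and 1.47 in +/- and 3.10 ± 0.55 in +/+. Its locus also holds the microRNA gene Mir107.

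Tiparp, an ADP-ribosyltransferase induced by the aryl hydrocarbon receptor, stood at 7.91, 7.34 and 11.9 in +/vg and at 3.51, 3.26 and 4.43 in +/- (1.07 ± 0.24). Its locus overlaps that of 4931440P22Rik. Cyp1a1, the cytochrome P450 gene best known as a target of the same receptor, was on the list of flow-responsive genes and stood at 4.62, 3.51 and 8.55 against 0.578, 0.994 and 0.931. All 3 +/vg libraries were well above, 6.66-fold on the group means. The difference was 1.77 ± 0.44 (limma unadjusted p = 0.00154, adjusted p = 0.474), 1.505 in the high range and 2.31 in the low range, and +/+ stood at 0.503 ± 0.137.

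The other higher genes described here were low. Pqlc3, Trpt1, Csn3 and Dcxr all had levels under 4 in every one of the 6 libraries, with differences of 0.63 to 1.36. Trpt1 and Dcxr were listed at 0 in the shallow library, and Trpt1 overlaps Fermt3.

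Among lower genes, Ppap2c, a lipid phosphate phosphatase, lies on chromosome 10 at 78989174 to 78996532. It was measured at 6.33, 6.64 and 5.07 in +/vg and at 13.8, 11.2 and 9.76 in +/-. No +/vg library came near the lowest +/- library. The difference was -0.84 ± 0.14 (95% interval -1.15 to -0.53, limma unadjusted p = 5.1e-05, adjusted p = 0.241) and was alike in the high range (-0.85) and the low range (-0.83), with +/+ at 13.0 ± 2.1.

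Gngt2, a G protein gamma subunit, stood at 34.7, 43.3 and 46.0 against 68.3, 70.4 and 71.6, with +/+ at 71.5 ± 5.1 (-0.76 ± 0.13). Its locus overlaps that of Abi3. Tmem14c, a mitochondrial membrane protein of haem synthesis, stood at 22.7, 32.4 and 29.4 against 67.1, 40.8 and 59.7, with +/+ at 56.2 ± 8.5. In these 2 the +/- libraries were again the ones at the wild-type level. Ncapd2, a condensin subunit for mitotic chromosomes, stood at 8.96, 9.82 and 10.5 against 14.2, 19.8 and 19.2, with +/+ at 14.8 ± 1.3.

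In Alg14, a subunit of the enzyme for the second sugar of N-glycans, the order was the other way round. It stood at 10.6, 9.10 and 11.8 in +/vg, at 20.2, 19.2 and 15.7 in +/- and at 11.0 ± 1.2 in +/+ (-0.75 ± 0.13). Tmem180, Tnfrsf18 and Prcp also had the +/vg mean nearer to +/+ than the +/- mean, with differences of -1.53, -1.29 and -1.14. In Prcp the difference was -1.58 in the high range, which holds the shallow library at 143 scaled FPKM, and -0.26 in the low range. Slc35a4 (-0.47) and the methionine salvage gene Mtap (-0.58) complete the lower genes.

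**Figure D4:**
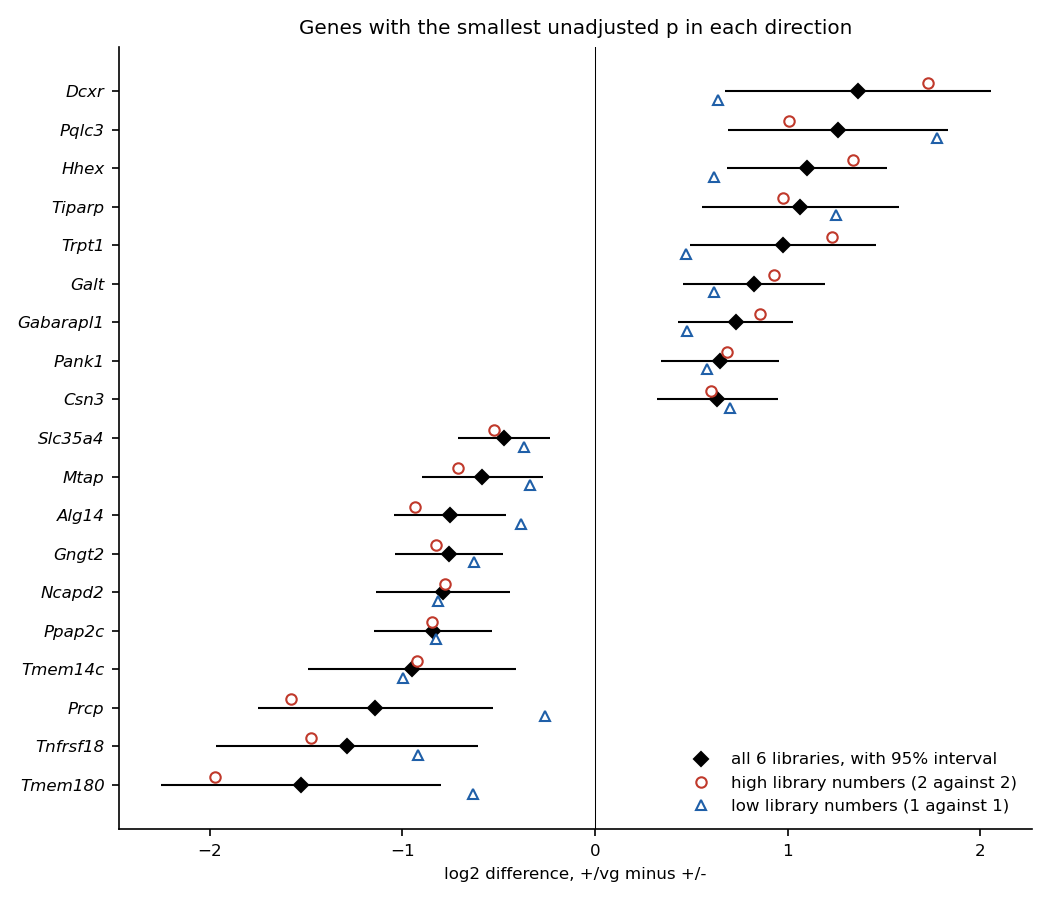
Log2 difference between +/vg and +/- (x axis) with its 95% interval for 19 of the 20 ranked genes (y axis), beside the difference within the high (circles) and the low (triangles) range of library numbers. The genes were chosen without overlap between the groups, which by itself fixes the same sign in both ranges. None had an adjusted p under 0.05.

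All 31 pan-endothelial genes were tested, with 13 higher and 18 lower, a median of -0.05. Without scaling 8 were higher and 23 lower (median -0.16). At an unadjusted p under 0.05, 2 were higher and 4 lower, where the shares of all genes were 4.82% and 3.62%. The VEGF receptor gene Kdr stood at 76.2, 77.9 and 75.7 against 76.1, 75.2 and 86.7 (-0.05 ± 0.12), and Emcn, the sialomucin of veins and capillaries, had a difference of -0.06 ± 0.15. Sox18, a factor of arterial and lymphatic endothelium, stood at 80.3, 108 and 77.2 against 114, 245 and 107 (-0.72 ± 0.25). It overlapped narrowly, and the shallow library set the highest value. Etv2, the ETS factor that specifies blood and endothelial progenitors, stood at 9.16, 6.48 and 5.81 against 2.40, 5.60 and 3.60 (0.78 ± 0.32), without overlap. Cd34, a progenitor and tip cell sialomucin, stood at 119, 143 and 143 against 167, 239 and 161 (-0.46 ± 0.20), also without overlap.

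The 12 venous genes tested were 5 higher and 7 lower (median -0.09), with none at an unadjusted p under 0.05, and the 20 tip cell genes 10 and 10 (-0.01). The endocardial list had 5 of 17 higher and 12 lower, with a median of -0.08 that was 0.14 in the high and -0.48 in the low range. Hand2, a basic helix-loop-helix factor of endocardium and heart, stood at 12.2, 10.8 and 6.31 against 10.6, 19.8 and 19.1 (-0.70 ± 0.24). Dusp6, a phosphatase induced by ERK signalling, stood at 35.0, 44.4 and 21.7 against 23.1, 21.5 and 21.3 (0.54 ± 0.21). Both genes overlapped. Of 16 cushion genes for the change of endocardium to mesenchyme, 12 were lower (median -0.12), and none had an unadjusted p under 0.05. Without overlap 2 were higher and 1 lower, where the shares of all genes were 5.87% and 4.57%. The lower one was Sox9, at 1.79, 1.78 and 2.07 against 2.27, 3.18 and 3.12.

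Flow-responsive genes were 8 higher and 6 lower, with a median of 0.08. At an unadjusted p under 0.05, 4 were higher, Cyp1a1 and Dusp1 among them, where the share of all genes was 4.82%. Dusp1 was counted among the immediate-early genes too. Without scaling 7 were higher and 7 lower (median -0.03). Klf2, the factor induced by laminar flow, stood at 60.5, 55.8 and 33.8 against 22.5, 20.5 and 50.4 (0.74 ± 0.35), a difference of 1.40 in the high range and -0.56 in the low range. Of 24 BMP and TGF-β genes 14 were higher (median 0.12). Id2, a BMP-induced inhibitor of helix-loop-helix factors, stood at 11.6, 10.2 and 16.0 against 17.1, 15.6 and 26.3 (-0.59 ± 0.19, limma unadjusted p = 0.00917). Its libraries overlapped at the margin, and its relative Id3 differed the other way, by 0.35 ± 0.22. VEGF signalling had 9 of 14 higher (median 0.12), with the calcineurin inhibitor Rcan1 at 24.5, 20.2 and 17.4 against 15.7, 13.6 and 17.3.

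**Figure D5:**
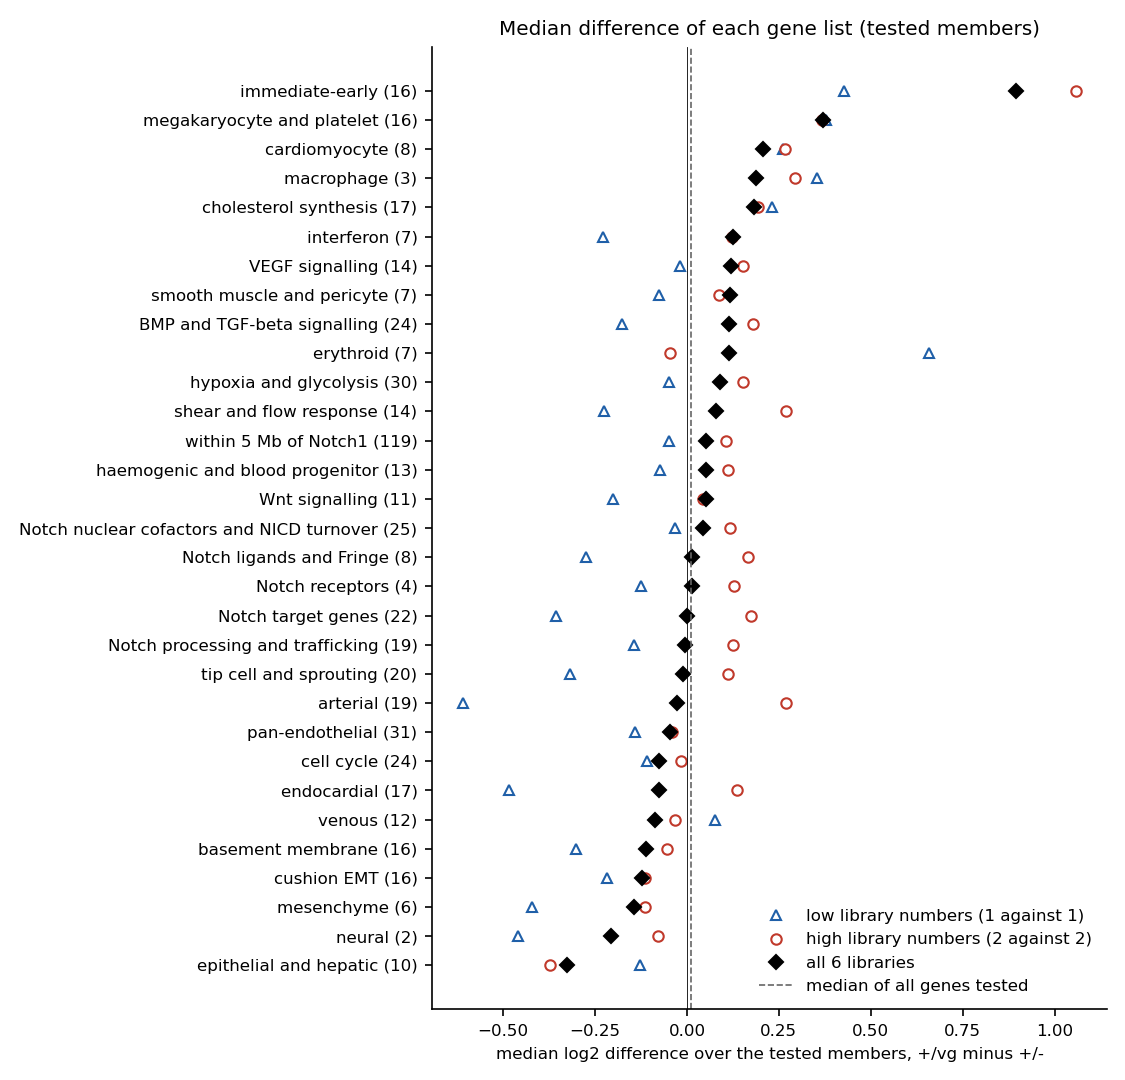
Median log2 difference between +/vg and +/- over the tested members of each gene list (y axis, number tested in brackets), from all 6 libraries (diamonds) and within the high (circles) and low (triangles) range of library numbers; the dashed line is the median of all genes, 0.01. Immediate-early genes stand furthest right at 0.90, and the arterial list has medians of 0.27 and -0.61 in the 2 ranges.

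Hypoxia and glycolysis genes were split, 18 higher and 12 lower of 30 (median 0.09). Slc2a1, the glucose transporter, stood at 261, 279 and 246 against 320, 505 and 323 (-0.51 ± 0.21), and Ankrd37, a hypoxia-induced ankyrin protein, at 2.57, 5.15 and 3.32 against 7.18, 9.92 and 5.47 (-0.87 ± 0.33). Both lay below all +/- libraries. The shallow library was the highest of the 6 for both, and for Ldha and Gapdh too. Cell cycle genes were 7 higher and 17 lower (median -0.08). The cyclin gene Ccnd2 stood at 10.3, 11.7 and 10.8 against 12.9, 15.3 and 13.9 (-0.33 ± 0.12) and the topoisomerase gene Top2a at 42.9, 41.5 and 40.2 against 47.7, 55.0 and 45.5 (-0.24 ± 0.10). Neither overlapped, though the size is under 1.3-fold.

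Of 17 cholesterol synthesis genes 14 were higher and 3 lower, where 52.2% of all genes were higher, with a median of 0.18 in all, 0.19 in the high and 0.23 in the low range. Without scaling 11 were higher and 6 lower (median 0.08), and 0 had an unadjusted p under 0.05. Nsdhl, a sterol dehydrogenase, was higher without overlap, at 11.4, 12.0 and 15.3 against 11.0, 6.25 and 7.61 (0.60 ± 0.24). Basement membrane genes were 5 higher and 11 lower (median -0.11). Sparcl1, a matricellular relative of Sparc, stood at 8.76, 7.13 and 10.7 against 4.77, 4.28 and 7.28 (0.63 ± 0.20), and Fbln1 had a difference of -0.49 ± 0.19. Wnt, interferon and blood progenitor lists, with 11, 7 and 13 genes tested, had medians of 0.05, 0.13 and 0.05. In each list 1 member, lower in +/vg, had an unadjusted p under 0.05, where the share of all genes was 3.62%. With so few members, 1 such gene says little about a list.

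Among genes of other cells, erythroid markers summed to 111 to 124 scaled FPKM in +/vg and 87.2 to 240 in +/-, the highest being the shallow library. Cardiomyocyte markers summed to 26.3 to 30.6 against 13.7 to 46.4, neural markers to 1.16 to 1.78 against 1.01 to 2.89, mesenchymal markers to 1.53 to 6.02 against 2.95 to 4.43, and epithelial markers to 4.07 to 12.2 against 2.57 to 21.1. Each of these sums overlapped between the groups. Their part in the differences above was not tested.

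The chromosomal neighbourhood of the edited gene was examined as well. Within 5 Mb of Notch1 on chromosome 2, 119 genes were tested, 72 higher and 47 lower in +/vg, where 52.2% of all genes were higher, with a median of 0.05. Without scaling 52 were higher and 67 lower (median -0.04). At an unadjusted p under 0.05, 7 were higher and 7 lower, where the shares of all genes were 4.82% and 3.62%. Without overlap 10 were higher and 8 lower, where the shares of all genes were 5.87% and 4.57%. Among the 10 were Surf1, an assembly factor of cytochrome oxidase, and the adjacent ribosomal protein gene Rpl7a, both picked here after their values were seen. Ralgds was among the 8 lower ones (-0.65 ± 0.22). Surf1 stood at 9.11, 10.3 and 12.1 against 4.34, 5.61 and 8.34 (0.72 ± 0.22) and Rpl7a at 1427, 1348 and 1606 against 918.6, 601.2 and 1236 (0.73 ± 0.22). Nrarp lies in this window too, among the lower genes.

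The 12/vg side of the series is 1 shallow library of 0.262 gigabases, so no replicates of that genotype show how vg against null stands beside a 12 allele. A limma fit of the difference of differences, (+/vg minus +/-) minus (12/vg minus 12/-), has to assume that this library varies like the other groups. Under that assumption 14 genes (0.133%) had an adjusted p under 0.05, 10 above 0 and 4 below. The count was 4 without scaling, and leaving out single +/vg or +/- libraries moved it between 4 and 104, so the values describe these libraries. Plod2, a collagen lysyl hydroxylase, had means of 4.97 in +/vg and 3.63 in +/- but 4.53 in 12/vg and 11.7 in 12/- (difference of differences 1.56 ± 0.20, limma adjusted p = 0.016). Bhlhe40, a hypoxia- and stress-induced repressor, had means of 2.69 and 2.15 but 1.88 and 12.2 (2.42 ± 0.41). Unlike Plod2, it was called under some alternatives and not under others. The genes counted above 0 include the small RNA genes Mir3064, Snora33 and Snora64 and the gene Ndufa4l2, which were all listed at 0 in the shallow 12/vg library. Every alternative that could be fitted held the same 12/vg library, so none could test how far the term rests on it. The log2 difference 12/vg minus 12/- was -1.19 in Plod2 and -2.17 in Bhlhe40, against 0.37 and 0.24 for +/vg minus +/-. In both genes the highest mean was that of 12/-, the genotype with impaired endothelium per the labels. The list of immediate-early genes had a median of -0.28 for 12/vg minus 12/-, with 6 of 16 higher and 10 lower.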

How the data were processed

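RNA was measured in CD31-sorted endothelial cells of 16 embryo libraries, 3 +/vg, 3 +/- and 10 others. The authors deposited cufflinks tables of 28107 RefSeq transcripts with FPKM and coverage, per the file headers. The submitters' processing notes name TopHat2 2.0.9 and mm9; sources used here give no cufflinks version and no strandedness. Deposited coverage divided by FPKM gave the aligned gigabases. FPKM was summed over 22096 symbols (Python 3.11.15, pandas 2.3.3), divided by median-ratio factors over 8610 genes, and tested as log2(value + 1), which understates the differences of low genes, with limma 3.58.1 (R 4.3.3; eBayes with trend, two-sided) over 6 groups with 10 residual degrees of freedom. Genes needed a mean FPKM of at least 1 and status OK throughout (10550 genes; 87 with that mean left out for status). FPKM are not counts, so no counting interval is given. The fit was tested on simulated data.

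Lists held 542 entries in 30 lists, of which 541 were matched. Named genes are the Notch lists, 10 genes per direction with the smallest p among those without overlap, and 2 by level and 2 by p of each other list. The members and lists were chosen with earlier results of these data known. Alternatives, 21 in all, changed scaling, pseudocount, filter, moderation, weights, covariate and libraries. Of the genes this rule names, 2 are not reported here. Genes on shared reads or overlapping loci are uncertain. Figures used matplotlib 3.10.9.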

Additional observations from a re-analysis of the deposited data

Results flagged for a closer look

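For 3 named genes limma's term (+/vg minus +/-) minus (12/vg minus 12/-) had an adjusted p just under 0.05 over all genes. The term rests on 1 shallow 12/vg library that is assumed to vary like the other groups, so it does not show that the difference depends on the allele. It was 1.97 ± 0.33 (SE) for Hhex, with means of 67.8 in +/vg, 31.9 in +/-, 27.9 in 12/vg and 52.3 in 12/- (adjusted p = 0.048). It was 1.45 ± 0.24 for Gabarapl1, with means of 49.1, 29.5, 25.1 and 42.2 (adjusted p = 0.048). For Sparcl1 it was 1.98 ± 0.34, with means of 8.85, 5.44, 9.65 and 26.5 (adjusted p = 0.048). All 3 were named for a small p of the +/vg minus +/- difference, which is a term of this test. Hhex and Gabarapl1 were named from the ranking of genes without overlap and Sparcl1 from the basement membrane list. In each of the 3 genes the adjusted p was under 0.05 in 12 of 18 alternatives and not in the other 6. Without scaling it was 0.127 for Hhex, 0.174 for Gabarapl1 and 0.0954 for Sparcl1.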

How the results depend on the processing

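The count of genes called between +/vg and +/- was 0 and stayed 0 under most of the 21 alternatives. It was 1 with no filter (Cacng8, near 0 FPKM), 1 with only the 6 libraries in the fit (Mir341), and 5 in the high range of library numbers, all microRNA genes. Leaving out single replicates gave 0 to 4. Without +/vg replicate 2 it was 1, without +/- replicate 1 it was 4, 3 of them small RNA genes, and without +/- replicate 3 it was 4 (Hhex, Dcxr, Guk1 and Eif1ax). The count for the difference of differences, 14 as reported, was 4 without scaling, without a trend in eBayes or with genes of any status kept, 48 with a pseudocount of 0.1, 94 with no filter and 100 with array weights, and 4 to 104 on leaving out single replicates. It could not be fitted with only the 6 libraries, without the shallow libraries or in the high range alone. The Notch1 difference of 0.11 became -0.0096 without +/- replicate 1, and ran from -0.0096 to 0.23 over the replicates left out. The cause of these moves was not tested. Signs held in every alternative for all 20 ranked genes, 86 of the other 156 named genes and 8 of 31 lists. The ranked genes were chosen without overlap, so leaving out libraries or changing the pseudocount could hardly turn their sign. Their count therefore cannot be weighed against that of the other named genes. The immediate-early median ranged from 0.78 to 1.09. No paired analysis was possible because the labels number the samples through the series and give groups no shared replicate numbers. Depth limits +/- replicate 2 and 12/vg most, where low genes can be listed at 0.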
